A study of Mus musculus with 6 samples.

Results

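Chemokine ligands are small secreted or membrane-anchored proteins that draw leukocytes along a gradient, and they were read out here in the liver of old mice that lack Itpr2. Members were the non-control probes whose accession maps to a mouse gene of the Ccl or Cxcl families, Cx3cl1, Xcl1, Pf4 or Ppbp. The rule gave 36 genes, measured by 43 probes, among the 21367 named genes of the array. Of the 36 members, 25 entered the test because every array of KO, of WT or of both showed them well above background, and for 24 of them all 6 arrays did. The study profiled total RNA from the liver of 3 Itpr2 KO mice and 3 wild-type (WT) mice, each on a one-colour Agilent array. Itpr2 encodes an inositol trisphosphate receptor, a calcium release channel of the endoplasmic reticulum and the main such receptor of hepatocytes. Mice of both genotypes were kept on a standard diet, were aged 23 months, received no treatment and were independent animals, per the labels. The labels name C57Bl/6 for the colony, and the sources used here do not say how the Itpr2 allele was made.

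Chemokines act through receptors with 7 membrane-spanning segments and are held on heparan sulfate at the vessel wall. In liver they come mainly from Kupffer cells, recruited macrophages, lymphocytes, endothelial cells, stellate cells and stressed hepatocytes. Many of the inflammatory members are switched on by interferon-gamma, or by tumour necrosis factor and interleukin-1 through NF-kB, while homeostatic members such as Cxcl12 are made without such signals.

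The promoters of 4 members are shown because motifs of the interferon and NF-kB responses can be looked for in them: Cxcl10, Cxcl9 and Ccl3, whose levels were lower on every KO array than on every WT array, and Cxcl1, whose levels were not. Each line holds the 250 bases before the start site on the gene's own strand, from the RefSeq table of build GRCm38.p6. Capitals mark GAAANNGAAA, the core of an interferon-stimulated response element, and GGGANNTTCC, a core of NF-kB sites. The windows lie at chr5:92348890-92349139 on the minus strand for Cxcl10, chr5:92328080-92328329 on the minus strand for Cxcl9, chr11:83649379-83649628 on the minus strand for Ccl3 and chr5:90890995-90891244 on the plus strand for Cxcl1.
Cxcl10: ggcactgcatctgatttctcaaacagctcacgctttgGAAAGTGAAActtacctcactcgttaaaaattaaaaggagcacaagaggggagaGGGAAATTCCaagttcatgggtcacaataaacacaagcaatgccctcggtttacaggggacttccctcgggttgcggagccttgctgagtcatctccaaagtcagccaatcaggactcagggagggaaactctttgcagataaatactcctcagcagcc
Cxcl9: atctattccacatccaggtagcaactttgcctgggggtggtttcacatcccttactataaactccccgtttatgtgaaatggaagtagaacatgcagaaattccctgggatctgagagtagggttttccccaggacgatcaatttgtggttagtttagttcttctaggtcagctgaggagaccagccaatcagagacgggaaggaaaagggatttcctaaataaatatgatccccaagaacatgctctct
Ccl3: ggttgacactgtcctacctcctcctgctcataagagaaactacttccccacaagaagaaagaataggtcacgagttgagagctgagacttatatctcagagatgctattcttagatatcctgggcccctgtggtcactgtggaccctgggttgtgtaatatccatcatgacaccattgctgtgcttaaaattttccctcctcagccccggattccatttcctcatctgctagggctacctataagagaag
Cxcl1: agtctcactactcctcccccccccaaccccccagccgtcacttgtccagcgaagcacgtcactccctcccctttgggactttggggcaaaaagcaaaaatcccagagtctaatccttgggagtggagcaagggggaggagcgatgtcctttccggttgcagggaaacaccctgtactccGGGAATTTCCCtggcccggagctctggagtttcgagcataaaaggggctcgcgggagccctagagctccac

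In Cxcl10 the interferon motif ran from -213 to -204 and the NF-kB motif from -159 to -150 relative to the start site. In Cxcl1 the NF-kB letters matched on both strands, in overlapping positions, which together ran from -71 to -61. Neither motif was found in the Cxcl9 and Ccl3 windows. Both strands of 26 members with an entry were searched, including 50 bases after the start site. GAAANNGAAA was present in 3 of them, Cxcl10, Ccl19 and Cxcl14, and in 3.44% of all 32851 windows. GGGANNTTCC was present in 5, Cxcl10, Cxcl1, Cxcl2, Cxcl3 and Ccl1, and in 1.47% of all windows. A match describes letters in a window and not a bound site.

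Each level is the log2 of a probe's signal minus the log2 of its array's 75th percentile, and a change is KO minus WT. The share of probes well above background ran from 57.3% to 59.4% over the arrays, 0 spots were saturated, and precision is limited by there being 3 arrays per genotype. Slide 1 held KO 1, WT 1 and WT 2, and slide 2 held KO 2, KO 3 and WT 3. The targeted gene Itpr2 had levels of 2.40, 2.23 and 2.06 on the KO arrays, against 2.90, 2.94 and 2.97 on the WT arrays, a log2 change of -0.71 ± 0.13 (SE) that did not pass (limma adjusted p = 0.815). Whether its probe lies in the deleted part is not known, so this level does not check the labels. All 10 hepatocyte markers of a fixed list were well above background on every array. Striated muscle transcripts stood high on 2 arrays: the mean deviation of the 3 muscle genes tested was 3.73 on KO 3 and 3.75 on WT 1, against -2.01 to -1.72 on the other arrays.

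Across the 25 members tested, 0 passed the adjusted threshold of 0.05, where 1 of 17986 genes did (0.00556% of all genes tested). Most inflammatory ligands had lower means in KO liver. In all, 16 of the 25 had a lower mean and 9 a higher one, and 48.6% of all genes tested had a lower mean. The median change was -0.31 over the members and 0.0076 over all genes tested. Limma gave 5 members an unadjusted p under 0.05, all lower in KO liver (Ccl3, Cxcl10, Ccl7, Ccl4 and Cxcl9), where 2.91% of all genes tested were lower at that p. None was higher at that p, where 3.14% of all genes tested were. All KO arrays lay below all WT arrays for 5 members (Ccl3, Cxcl10, Ccl7, Cxcl9 and Cxcl16), as for 5.66% of all genes, and above them for 0, as for 6.11%. By exact permutation, two-sided, each of those 5 had p = 0.1, which is the lower limit for 3 against 3 arrays. RNA came from whole liver, so fewer cells of a type and less RNA per cell cannot be told apart in any of these values.

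**Figure D1:**
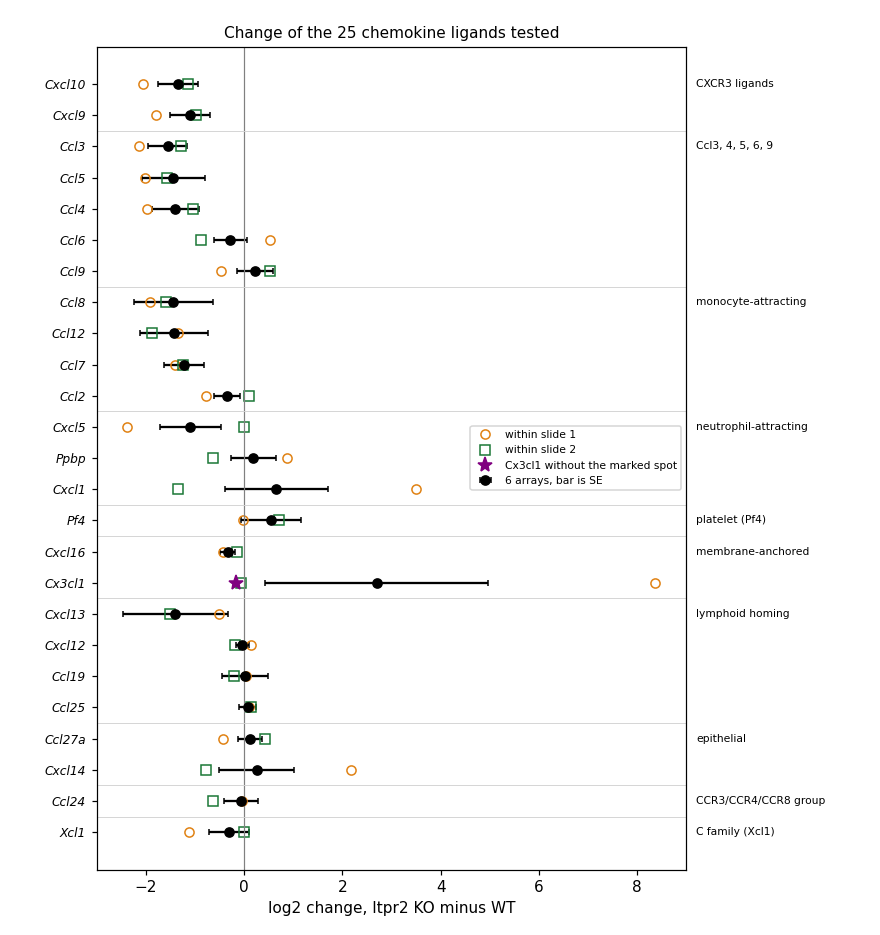
Log2 change (KO minus WT) of the 25 chemokine ligands tested, grouped by role. Black points are the fit over 6 arrays with its SE, open circles and squares are the changes within slide 1 and slide 2, and the star is Cx3cl1 without its marked KO 1 spot. The CXCR3 ligands, Ccl3, Ccl4 and Ccl5, and Ccl7, Ccl8 and Ccl12 lie between -1.56 and -1.10. Of these, Ccl12 entered the test only through WT, where it was high. The wide bar of Cx3cl1 (2.70 ± 2.26) comes from 1 array.

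Cxcl9 and Cxcl10, the interferon-induced ligands of CXCR3 that attract activated T cells and NK cells, both had lower levels on every KO array. Cxcl10 had levels of -0.18, 0.97 and 1.06 in KO liver, against 1.38, 2.37 and 2.16 in WT liver. Its means were 0.62 ± 0.69 in KO and 1.97 ± 0.52 in WT (SD, n = 3 each), a log2 change of -1.36 ± 0.41 (SE) or a 2.56-fold lower mean (limma unadjusted p = 0.014, adjusted p = 0.815). The genotypes did not overlap, and KO 1 was the lowest array. Cxcl9 had levels of 0.88, 1.92 and 2.39 in KO liver, against 2.41, 2.94 and 3.14 in WT liver. Its log2 change was -1.10 ± 0.41 (SE), a 2.14-fold lower mean (limma unadjusted p = 0.033, adjusted p = 0.815), with KO 3 only just below WT 1. A second Cxcl9 probe gave -1.20. Without KO 1 the change of Cxcl9 was -0.68. Within slides 1 and 2 the changes were -2.06 and -1.15 for Cxcl10 and -1.79 and -0.99 for Cxcl9. The third CXCR3 ligand, Cxcl11, was not analysed here.

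Ccl3, Ccl4 and Ccl5 draw T cells, NK cells and monocytes, and their genes lie in 1 cluster on chromosome 11 with Ccl6 and Ccl9, which bind CCR1 in the mouse. Ccl3 had levels of -4.59, -4.33 and -3.10 in KO liver, against -2.69, -2.22 and -2.43 in WT liver. Its means were -4.01 ± 0.79 in KO and -2.45 ± 0.23 in WT (SD, n = 3 each), a log2 change of -1.56 ± 0.39 (SE) or a 2.95-fold lower mean (limma unadjusted p = 0.006, adjusted p = 0.815). It was the member with the smallest unadjusted p, and its genotypes did not overlap. Ccl4 had levels of -2.71, -2.51 and -1.32 in KO liver, against -1.40, -0.05 and -0.88 in WT liver. Its log2 change was -1.40 ± 0.47 (SE) (limma unadjusted p = 0.023, adjusted p = 0.815), and KO 3 lay just above WT 1. Ccl5, which T and NK cells make in quantity, had levels of 0.93, 1.41 and 3.00 in KO liver, against 2.21, 3.67 and 3.78 in WT liver. The genotypes overlapped for Ccl5 through KO 3 and WT 1, and its log2 change was -1.44 ± 0.64 (SE) (limma unadjusted p = 0.063).

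The other genes of that cluster had changes within their errors. Ccl9, a macrophage and myeloid product, had levels of 3.65, 4.41 and 5.08 in KO liver, against 4.44, 3.81 and 4.22 in WT liver, a log2 change of 0.22 ± 0.37 (SE) (limma adjusted p = 0.928). Ccl6 had levels of 3.32, 2.04 and 2.56 in KO liver, against 2.99, 2.61 and 3.18 in WT liver, a change of -0.28 ± 0.34. The KO arrays spread wider than the WT arrays for both genes, over 1.43 against 0.63 for Ccl9 and 1.28 against 0.57 for Ccl6, and the genotypes overlapped. Among the members on the chromosome the order is Ccl5, Ccl9, Ccl6, Ccl3 and Ccl4, so that Ccl9 and Ccl6 sit between genes with lower means. The difference between these genes' changes was not tested.

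**Figure D2:**
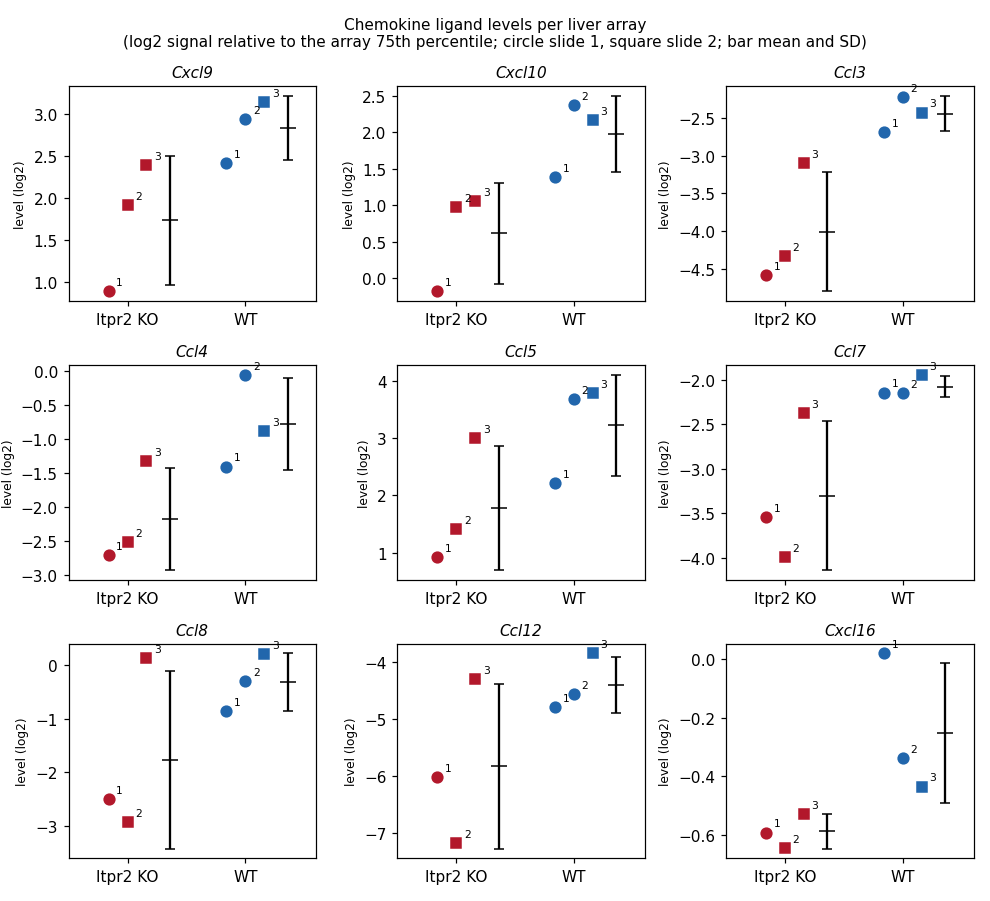
Levels of 9 chemokine ligands on each array (log2, relative to the 75th percentile of the array), KO in red and WT in blue. Circles are slide 1, squares slide 2, digits the replicate, and the bars give mean and SD of 3 arrays. KO 3 is the highest KO array in every panel, as it is for 17 of the 25 members tested.

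Ccl2, Ccl7 and Ccl12, which are ligands of CCR2, and Ccl8 attract monocytes, and their genes form a further stretch of chromosome 11. All 4 had a lower mean in KO liver and a median change of -1.33, but only Ccl7 reached an unadjusted p under 0.05. Ccl12 entered the test only through WT, where it was high, so its place in this count and median follows in part from the filter. Ccl7 had levels of -3.54, -3.99 and -2.37 in KO liver, against -2.14, -2.15 and -1.94 in WT liver. Its log2 change was -1.23 ± 0.40 (SE), a 2.34-fold lower mean (limma unadjusted p = 0.020, adjusted p = 0.815), and the genotypes did not overlap. Ccl8 had levels of -2.50, -2.93 and 0.13 in KO liver, against -0.86, -0.30 and 0.20 in WT liver, a change of -1.44 ± 0.80 (SE) (limma unadjusted p = 0.117). KO 1 and KO 2 lay below every WT array and KO 3 lay among them. Ccl12 showed the same order of KO arrays, at -6.01, -7.17 and -4.30, against -4.79, -4.56 and -3.85 in WT liver. It was well above background on 1 KO array and 3 WT arrays, and the scanner's own error on its signal was 11.8% to 59.6%, so its change of -1.43 ± 0.70 (SE) is the least precise at the level of the spot.

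Ccl2, the main ligand of CCR2, had levels of 0.19, 0.30 and 0.92 in KO liver, against 1.21, 0.73 and 0.51 in WT liver. Its change was -0.35 ± 0.27 (SE) (limma adjusted p = 0.850) and the genotypes overlapped. The Ccl2 probe is printed 10 times on each array, and the SD between those spots was 0.065 to 0.11, well under the spread between mice of a genotype. Within slides its changes were -0.77 and 0.095, in opposite directions.

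These counts moved with the arrays that were included. KO 3 was the highest KO array for 17 of the 25 members, KO 1 was the lowest for 11 and KO 2 for 11. Without KO 3, limma gave 9 members an unadjusted p under 0.05, all lower (Ccl3, Ccl4, Ccl5, Ccl7, Ccl8, Ccl12, Cxcl5, Cxcl9 and Cxcl10), where 4.84% of all genes tested were lower at that p. Ccl12 was not well above background on KO 1 or KO 2. As in the fit over 6 arrays, it was thus in this fit and the next only through WT, where it was high. The same 9 came out without KO 3 and WT 1, the arrays with muscle transcripts, where 4.04% of all genes tested were lower. The changes were then -2.15 for Ccl4, -2.56 for Ccl5, -2.66 for Ccl8 and -2.38 for Ccl12. Outside these 9 they were 1.20 for Cxcl1, -0.61 for Ccl19, -0.75 for Xcl1, -0.46 for Ccl24, 0.70 for Cxcl14, 0.27 for Ccl25, -0.24 for Ppbp and 0.015 for Ccl9. The median change of the members was -0.49 without KO 3. With each array left out in turn it ran from -0.49 to -0.23, against -0.31 with all arrays. The counts, all lower, were 2 without KO 2, 3 without WT 2 and 3 without WT 3, beside 3.05%, 2.11% and 1.87% of all genes. Without WT 1 the count was 6, all lower, where 393 of 18065 genes tested were lower. Without KO 1 it was 4, of which 3 were lower (Ccl3, Cxcl10 and Cxcl14), while Ccl27a was higher. In that fit 861 of 18119 genes tested were lower at that p and 842 higher. Ccl3 and Cxcl10 were in the count whichever array was left out. No member passed the adjusted threshold in any of these fits.

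**Figure D3:**
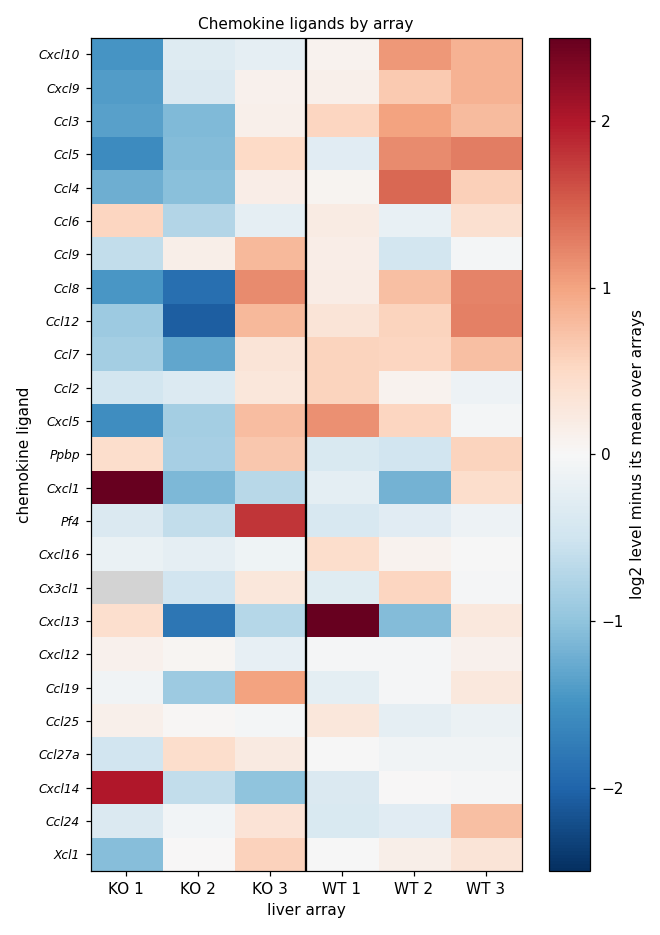
Level of each of the 25 members on each array minus its mean over the 6 arrays (log2), with KO arrays left of the line and WT arrays right. Blue is below and red above the mean, and the grey cell is the marked Cx3cl1 spot on KO 1. Most of the upper rows are blue on KO 1 and KO 2 and paler or red on KO 3, and single dark red cells mark Cxcl1 and Cxcl14 on KO 1, Pf4 on KO 3 and Cxcl13 on WT 1.

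Neutrophil-attracting ligands, which act on CXCR2, had no common direction. Of 6 listed, Cxcl2, Cxcl3 and Cxcl15 were not well above background on any array. Cxcl1 had levels of 3.14, -0.76 and -0.33 in KO liver, against 0.11, -0.81 and 0.80 in WT liver, a log2 change of 0.65 ± 1.05 (SE) (limma adjusted p = 0.925). KO 1 stood alone, and without it the change was -0.58. Cxcl5 had levels of -5.90, -5.21 and -3.59 in KO liver, against -3.21, -3.83 and -4.39 in WT liver, a change of -1.09 ± 0.61 that was -2.39 within slide 1 and -0.0069 within slide 2. Ppbp, a platelet granule chemokine, had a change of 0.19 ± 0.46.

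KO 1 was also the highest array for neutrophil marker genes. All 11 tested of 12 listed had a higher mean in KO liver, and their mean deviation was 1.91, -1.78 and 0.65 on the KO arrays, against -0.39, -0.69 and 0.31 on the WT arrays. Of the 11, 9 were well above background on all 6 arrays. None had an unadjusted limma p under 0.05, where 3.14% of all genes tested were higher. The median change of these markers was 2.52 within slide 1, which held KO 1, and -0.29 within slide 2. Ly6g, a defining marker, was not tested. KO 2 was the lowest array for the markers, and the part of neutrophils in the Cxcl1 levels was not tested.

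Pf4, a heparin-binding chemokine stored in platelets, had levels of 0.39, 0.14 and 2.53 in KO liver, against 0.34, 0.47 and 0.62 in WT liver. Its change was 0.54 ± 0.61 (SE) (limma adjusted p = 0.881), KO 3 alone stood out, and without it the change was -0.21. Markers of platelets and megakaryocytes had mean deviations of 0.07, -0.50 and 0.36 on the KO arrays, against -0.14, -0.28 and 0.49 on the WT arrays, with 8 of 10 tested and Gp5 and Gp6 not tested. These markers were no higher on KO 3 than on WT 3, though KO 3 was their highest KO array. The part of platelets in the Pf4 levels was not tested.

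Cxcl16 and Cx3cl1 are made as membrane-anchored proteins that tether CXCR6 and CX3CR1 cells and are shed by proteases. Cxcl16 had levels of -0.59, -0.64 and -0.53 in KO liver, against 0.02, -0.34 and -0.44 in WT liver. The genotypes did not overlap, the change was -0.34 ± 0.16 (SE), a 1.26-fold lower mean (limma unadjusted p = 0.071), and it was -0.20 without WT 1 and -0.43 and -0.15 within slides 1 and 2. Cx3cl1 had levels of 6.59, -2.35 and -1.59 in KO liver, against -2.18, -1.35 and -1.90 in WT liver, so that its change of 2.70 ± 2.26 (SE) rested on KO 1. The scanner software marked the background of that spot as an outlier: its local background signal was 5034, against 23.5 to 33.5 around the same spot on the other arrays. Without the marked spot the change of Cx3cl1 was -0.16, and the median of the other 24 members was -0.32.

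Of 4 homeostatic and lymphoid-homing ligands tested, 2 had a lower mean, with a median change of -0.01. Cxcl12, which retains haematopoietic cells through CXCR4, had levels of 5.48, 5.43 and 5.17 in KO liver, against 5.35, 5.34 and 5.49 in WT liver. Its change was -0.035 ± 0.14 (SE) (limma adjusted p = 0.972), among the smallest errors of the members. Cxcl13, which draws B cells into follicles, varied far more, at 0.47, -1.74 and -0.65 in KO liver, against 3.00, -1.03 and 0.32 in WT liver. WT 1 alone was high, the change was -1.40 ± 1.07 (SE), and it was -0.28 without the 2 muscle arrays. B and plasma cell markers had mean deviations of -0.42, -0.28 and 1.42 on the KO arrays, against 0.56, 0.43 and -1.71 on the WT arrays, with 7 of 8 tested. Their highest array was KO 3, which was not the highest array for Cxcl13. Ccl19 and Ccl25, which guide T cells to lymph node and gut, had changes of 0.0094 ± 0.47 and 0.074 ± 0.17. Ccl19 and Ccl27a have near-identical copies in the mouse genome, which their probes may not tell apart.

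The remaining ligands of epithelium, of allergic responses and of the C family gave no difference past their errors. Ccl27a, a skin chemokine, had levels of 1.35, 2.27 and 2.05 in KO liver, against 1.83, 1.74 and 1.74 in WT liver, a change of 0.12 ± 0.25 (SE). Cxcl14 had levels of 1.47, -1.14 and -1.54 in KO liver, against -0.89, -0.52 and -0.56 in WT liver, a change of 0.25 ± 0.76. As with Cxcl1, KO 1 alone was high. Ccl24, an eosinophil attractant that acts on CCR3, had levels of -1.19, -0.90 and -0.48 in KO liver, against -1.21, -1.10 and -0.06 in WT liver, a change of -0.065 ± 0.35. Xcl1, a T and NK cell product for cross-presenting dendritic cells, had levels of -4.27, -3.19 and -2.63 in KO liver, against -3.22, -3.05 and -2.90 in WT liver, a change of -0.31 ± 0.40. KO 1 was again the lowest array for Xcl1, and the KO range held the whole WT range.

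The 11 members that were not tested lacked a signal well above background on every array of either genotype. Ccl1, Ccl20, Ccl22, Ccl26, Ccl28, Cxcl2, Cxcl3, Cxcl15 and Cxcl17 were not well above background on any of the 6 arrays. Ccl11, the eosinophil attractant eotaxin, was well above background on 1 KO array (KO 3) and 1 WT array (WT 1). Ccl17, a ligand of CCR4 on T helper cells, was so on 2 KO arrays and 1 WT array. Its highest levels were -3.55 on KO 3 and -4.51 on WT 1, the arrays with muscle transcripts. No change is given for these 11.

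Both slides held both genotypes, so the comparison can be read within each, though slide 1 had a single KO array and slide 2 a single WT array. Of the 25 members, 13 were lower in KO liver on both slides and 1 was higher on both, while 27.2% of all genes tested were lower on both. The median change of the members was -0.47 within slide 1 and -0.64 within slide 2. The members lower on both slides include Ccl3, Ccl4, Ccl5, Ccl7, Ccl8, Ccl12, Cxcl9, Cxcl10 and Cxcl16. Of these, Ccl12 entered the test only through WT, where it was high.

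Cytokines that induce chemokines were read from a further list. Of 11 inducing cytokines listed, 6 were tested, their median change was -0.56, and 5 had a lower mean. Only 3 of the 6 were well above background on all 6 arrays. The others entered through a single genotype, so the count and median of this list follow in part from the filter. Tnf was well above background on 0 KO arrays and 3 WT arrays, so it entered the test only through WT, where it was high. Its direction thus follows in part from the filter, and the bound of at least 1.90-fold lower in KO liver is no separate support. For this bound each KO array was set to its Tnf signal or to the lowest signal it measured well above background, whichever was higher (limma adjusted p = 0.815 for the signals as measured). Il1a had a change of -0.61 ± 0.23 (SE) (limma unadjusted p = 0.034, adjusted p = 0.815). It was well above background on 2 of 3 KO arrays, so it too entered only through WT. All KO arrays lay below all WT arrays for both genes, as for 5.66% of all genes, but the KO signals of Tnf were not well above background. Il4, Il6, Il13, Il17a and Lta were not tested.

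The interferon-gamma list had 15 of 18 genes with a lower mean and a median of -0.41. Its mean deviation was -0.40, -0.24 and 0.02 on the KO arrays, against -0.07, 0.005 and 0.68 on the WT arrays, so that WT 3 stood above the rest and KO 3 lay above WT 1 and WT 2. Its median was -0.22 within slide 1 and -0.78 within slide 2. For 3 of them the unadjusted limma p was under 0.05, all lower (2.91% of all genes tested), and 0 passed the adjusted threshold. Cd274, which encodes the checkpoint ligand PD-L1, had levels of -2.12, -1.55 and -1.61 in KO liver, against -0.92, -1.15 and -0.095 in WT liver, so the genotypes did not overlap. Its change was -1.04 ± 0.31 (SE) (limma unadjusted p = 0.013, adjusted p = 0.815), while Gbp2 had one of -0.86 ± 0.36 and Gbp5 one of -0.82 ± 0.34, both guanylate-binding proteins induced by interferon. NF-kB feedback genes, by contrast, had 8 of 13 tested genes with a lower mean, a median of -0.09 and 0 at an unadjusted limma p under 0.05 in the lower direction or the higher one. The 2 with the smallest p were Rela, an NF-kB subunit, at 0.23 ± 0.12 (SE), and Tnfaip2 at 0.16 ± 0.14. The difference between the lists was not tested.

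Chemokine receptors had 11 of 17 genes tested, with 6 lower means and a median of -0.02. Ccr8, the receptor of Ccl1 and, in the mouse, of Ccl8, was well above background on 3 KO arrays and 0 WT arrays. It thus entered the test only through KO, where it was high, so its direction follows in part from the filter. The bound was at least 2.95-fold higher in KO liver (limma adjusted p = 0.815 for the signals as measured). Ccr8 was the only receptor at an unadjusted limma p under 0.05, where 3.14% of all genes tested were higher. Of its ligands, Ccl1 was at background on all 6 arrays and Ccl8 had the lower mean given above. Of the receptors of the ligands with lower means, 2 were named after their values were seen, and both overlapped between genotypes: Ccr2 had a change of -0.35 ± 0.37 (SE) and Cxcr3 one of -0.43 ± 0.44. Ccr1, Ccr3, Ccr4, Ccr10, Cxcr1 and Xcr1 were not tested. All 5 listed decoy receptors had a lower mean (median -0.19), and the Ackr genes among them encode receptors that bind chemokines without signalling migration. The median of this list was -0.018 within slide 1 and -0.11 within slide 2, with 0 genes at an unadjusted limma p under 0.05. Ackr1 and Ackr4 had the smallest p, at -0.22 ± 0.22 (SE) and -0.19 ± 0.19. Genes of chemokine processing and display had 4 of 12 tested genes with a lower mean and a median of 0.09, with Sdc4, a heparan sulfate carrier, at 0.30 ± 0.20 (SE) and Elane, a neutrophil protease, at 0.50 ± 0.36.

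Several markers of the cells that make or follow these chemokines also had lower means in KO liver. All 12 Kupffer cell markers tested of 13 had a lower mean, their median change was -0.55, with 6 lower at an unadjusted limma p under 0.05 (2.91% of all genes tested), and Cd163 was not tested. Their mean deviation was -0.14, -0.54 and -0.17 on the KO arrays, against 0.78, -0.27 and 0.35 on the WT arrays. T and NK cell markers had 10 of 12 tested genes lower of 17 listed, a median of -0.56, and mean deviations of -0.87, -0.61 and 0.69 on the KO arrays, against -0.07, 0.30 and 0.56 on the WT arrays. KO 3 was thus the highest of all arrays for T and NK cell markers, as it was the highest KO array for Ccl5, while the Kupffer cell markers put KO 3 close to KO 1. Of the 12 T and NK cell markers tested, 11 were well above background on all 6 arrays, and 0 had an unadjusted limma p under 0.05. Trac, Trbc1, Ncr1, Klrb1c and Klrk1 of that list were not tested. Monocyte markers had 9 of 12 tested genes lower of 13 listed, a median of -0.42 and 0 genes at an unadjusted limma p under 0.05. Their mean deviations were 0.30, -0.89 and 0.09 on the KO arrays, against 0.27, -0.12 and 0.35 on the WT arrays. The median of the monocyte markers was -0.015 within slide 1 and -0.83 within slide 2. Endothelial and stellate cell lists, with 11 genes each, went the other way, with 8 and 7 higher means and medians of 0.10 and 0.12. In the stellate list Rgs5 and Acta2 were higher at an unadjusted limma p under 0.05, where 3.14% of all genes tested were. The part of cell numbers in the chemokine levels was not tested.

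**Figure D4:**
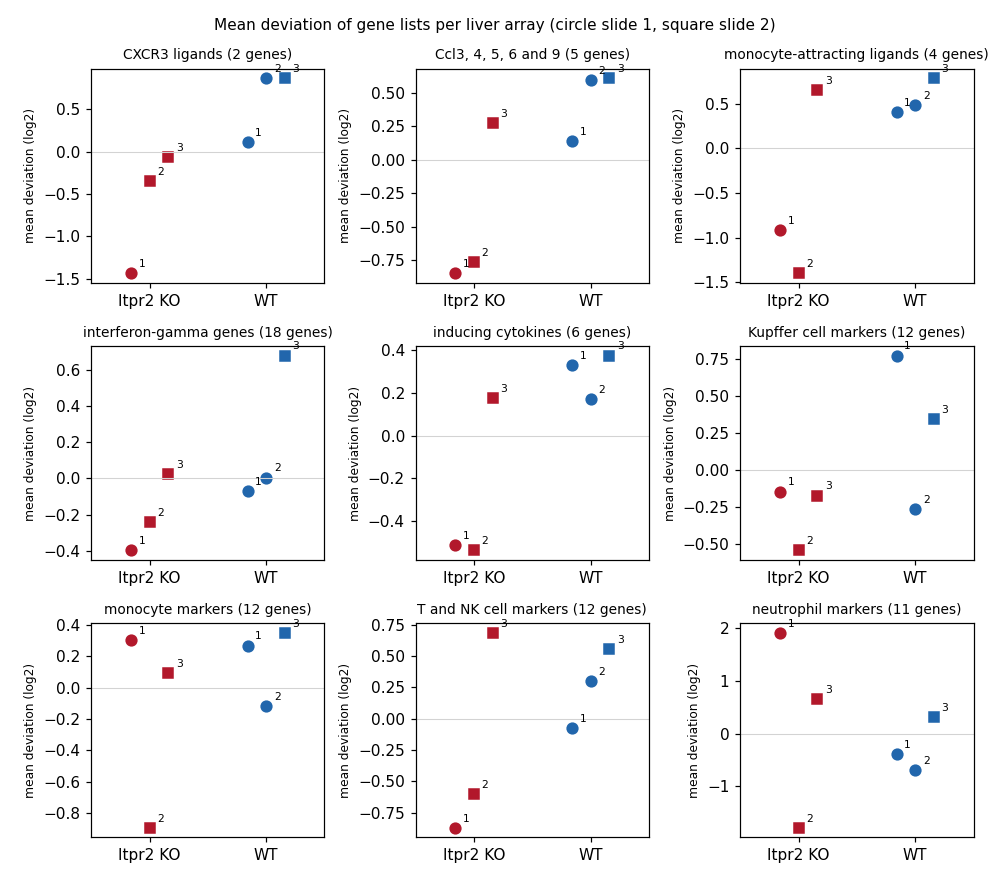
Mean deviation (log2, each gene minus its mean over 6 arrays) of chemokine groups, inducers and cell type markers on each array, KO in red and WT in blue, circles slide 1 and squares slide 2, with the replicate beside each point. The CXCR3 ligands run from -1.44 to -0.06 on KO arrays and from 0.11 to 0.87 on WT arrays. This lack of overlap follows from Cxcl9 and Cxcl10, the only genes in that mean, neither of which overlapped. The neutrophil markers spread from -1.78 to 1.91 on the KO arrays alone.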

How the data were processed

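Per the labels' protocols, RNA of snap-frozen liver was labelled with Cy3 for one-colour Agilent arrays. The deposited scanner tables hold intensity values. The file headers name Agilent Feature Extraction 11.5.1.1, and the submitters' processing notes name 10.7.3.1. Per the file headers the software subtracted the background from the processed intensity, which carries no scaling between arrays. The deposited log2 matrix, with 20644 probes, followed the scanner signals once these were divided by the array's 75th percentile and centred per probe. Its column medians were -0.0127, 0.0106 and 0.00617 for KO 1 to 3 and 0.00207, -0.00940 and 0.00497 for WT 1 to 3. Its columns KO 2 and KO 3 followed the scanner arrays KO 3 and KO 2 (r = 0.999 each across probes, -0.08 with their own), which leaves the genotypes as they are, and the scanner tables name the arrays here.

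The processed intensity was divided by its array's 75th percentile and taken to log2, without 1377 control spots of 44397 and without 818 outlier spots over the 6 arrays, with spots of a probe averaged. Accessions were matched to a gene table of GRCm38.p6, which named 28330 of 39429 probes, 0 with several symbols and 11099 with none. Where a gene had several probes, the one with the highest mean stood for it. A probe entered where every array of KO, of WT or of both marked it well above background (22289 probes, 17986 genes). Genotypes were compared with limma 3.58.1 in R 4.3.3 (two-sided, Benjamini-Hochberg over all genes, threshold 0.05). The procedure was tested on simulated data. Scans followed slides. The replicate numbers did not pair the mice: deviations of same-numbered arrays correlated at -0.19, 0.042 and -0.28 across genes.

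The rule for named genes gave every array's value for members with an unadjusted p under 0.05 or no overlap of genotypes and for 1 member of each ligand group, and the others more briefly. From the other lists it took genes with an unadjusted p under 0.05, or else the 2 with the smallest p. A few genes of those lists are not reported here and were left out of the lists' counts and medians. Members and lists were chosen with earlier results of these data known. Alternatives were slide and replicate blocks, normexp background correction, other scalings, filters, probe rules and variance priors, array weights, the authors' matrix and each array left out. Normexp ran on the median signal in place of the planned mean signal, a column not found in the tables used here. Promoter coordinates are those of the RefSeq table, not of the array design.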

Additional observations from a re-analysis of the deposited data

How the results depend on the processing

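Under all 22 refits 0 chemokine ligands passed the adjusted threshold, and the lowest adjusted limma p of a member named in full was 0.140. Cxcl9 and Cxcl10 kept a lower mean under all of them, and Ccl4 did too but was -0.075 with normexp on the median signal. Over all genes, 1 gene passed, against 0 with the replicate block, both normexp corrections, the filter on all 6 arrays, the trended prior and without the 2 muscle arrays, and 0 to 2 with each array left out. The count of members at an unadjusted p under 0.05 was 5, against 9 with the replicate block, 9 without the 2 muscle arrays and 2 to 9 with each array left out. With the replicate block 3.37% of all genes were lower at that p. With normexp on the median signal it was 7, of which 3 were lower and 4 higher, beside 4.93% and 27.9% of all genes. The replicate block changed no call of a member. The median change of the members, -0.31, turned to 0.13 with normexp on the median signal, under which the median of all genes was 0.14. That correction met local backgrounds of up to 9484 on KO 1 and 77414 on KO 2, and it turned Ccl3 to 0.70, Ccl7 to 0.70, Cxcl16 to 0.063, Ccl24 to 0.19, Ccl27a to -0.46, Ccl9 to -0.27 and Xcl1 to 1.15. With marked backgrounds set to the array median, an alternative added after seeing the data, the members' median was -0.12, Ccl3 was -0.52, Ccl7 was -0.48, Cxcl16 was -0.17 and Xcl1 was 0.0054. Under it Ccl7 had an unadjusted p over 0.05 and Ccl5 one under it. The other added alternative, which left out spots with background marks, kept the 5 members at an unadjusted p under 0.05. Without the filter on dim probes the median over 36 members was -0.05.

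Among members named in full, the other sign changes in a refit concerned those whose change was within its error, and their cause was not tested. Outside them, Cx3cl1 turned from 2.70 ± 2.26 (SE) to -0.16 without its marked spot. With each array left out in turn, Ccl24 ranged from -0.27 to 0.30, Ccl27a from -0.070 to 0.39, Ccl9 from -0.13 to 0.59, Cxcl1 from -0.58 to 1.38, Cxcl12 from -0.096 to 0.060, Pf4 from -0.21 to 0.98 and Xcl1 from -0.67 to 0.15. The low end came without KO 2 for Ccl27a, without KO 3 for Ccl9 and Pf4 and without KO 1 for Cxcl1, and the high end without KO 3 for Cxcl12 and without KO 1 for Xcl1. Ccl24 turned positive without WT 3 and, at 0.10, without KO 1, and Cxcl12 was also 0.011 without WT 3. Ccl24 was 0.025 with the slide as a random block and Ccl27a -0.0095 with it as a fixed block. Without the 2 muscle arrays Cxcl12 was 0.040 and Pf4 -0.28. With 3 arrays per genotype, changes of the size seen here sit near the spread between mice, and Ccl12 also lies near background.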
